A study of Homo sapiens and Mus musculus with 16 samples.

Results

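The cytosolic ribosome is built from ribosomal RNA and a fixed set of proteins, most of them present once in each particle, and the genes for these proteins are among the most strongly expressed in any growing cell. Proteins named RPS belong to the small 40S subunit, which reads the mRNA, and proteins named RPL belong to the large 60S subunit, which joins amino acids and carries the stalk proteins RPLP0, RPLP1 and RPLP2. Their mRNAs typically begin with a C followed by a run of pyrimidines, the terminal oligopyrimidine (TOP) tract, through which mTOR and LARP1 control their translation. The genes have left many processed pseudogenes in the human genome, which makes short reads from them hard to place.

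The genes described here are the rows of the transcriptome table whose symbol is RPL or RPS followed by a number, with the usual letter endings, together with RPLP0, RPLP1, RPLP2 and RPSA. This rule used names alone and found 84 genes among the 22314 rows of the table, 32 of the 40S subunit and 52 of the 60S subunit. The table holds FPKM (fragments per kilobase of exon per 1000000 fragments mapped) in 4 mRNA libraries of SK-HEP-1, an established human liver cancer cell line. Cells received DMSO alone for 2 h (2U) or 4 h (4U), or 0.5 mg/ml of an ethanol extract of Antrodia cinnamomea fruiting bodies (AcFBE) for 2 h (2T) or 4 h (4T). Each condition had 1 library, so no difference below has a replicate or a test, and every ratio compares 2 libraries. Levels come from bulk RNA and are scaled to the fragments mapped in each library. A change in cell number, or in RNA per cell over all genes alike, therefore cannot be seen. The hepatocyte genes ALB, APOA1 and TTR were listed at 0 in all 4 libraries, whereas VIM ranged from 6465 to 13625 FPKM and CAV1 from 115 to 260 FPKM. The endothelial gene PECAM1 was also listed at 0 throughout.

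The start of the transcript shows what most of these genes have in common. RefSeq promoter windows (GRCh38.p14, 250 bases before to 50 bases after an annotated start) matched 67 of the 84 genes by symbol. A C at the start followed by at least 4 more uninterrupted pyrimidines was present at an annotated start of 47 of the 67 genes (70.1%), with a median run of 8 bases. The share was 13.4% of 403 other genes with a mean of at least 100 FPKM, 8.96% of 67 mitochondrial ribosomal protein genes and 5.14% of all 27305 genes of the promoter table. Windows of 30 bases, 10 before and 20 from the start, are shown for genes that recur below, 5′ to 3′ on the strand of the gene, with the pyrimidine run in capitals.
RPS3: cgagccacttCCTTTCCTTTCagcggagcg
RPS6: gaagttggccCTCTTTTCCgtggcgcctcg
RPLP0: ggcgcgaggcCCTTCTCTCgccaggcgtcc
RPL11: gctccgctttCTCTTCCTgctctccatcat
RPL28: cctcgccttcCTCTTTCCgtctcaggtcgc
RPL10: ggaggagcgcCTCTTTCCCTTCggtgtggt
RPL26: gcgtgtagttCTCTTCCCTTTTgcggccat
RPL26L1: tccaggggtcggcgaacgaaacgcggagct
RPS27: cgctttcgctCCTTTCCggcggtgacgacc
RPS27L: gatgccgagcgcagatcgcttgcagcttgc

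These windows lie at chr11:75399508-75399537 (plus strand) for RPS3, chr9:19380217-19380246 (minus) for RPS6, chr12:120201092-120201121 (minus) for RPLP0, chr1:23691796-23691825 (plus) for RPL11, chr19:55385922-55385951 (plus) for RPL28 and chrX:154398367-154398396 (plus) for RPL10. RPL26 and its paralogue RPL26L1 lie at chr17:8383174-8383203 (minus) and chr5:172958719-172958748 (plus), and RPS27 and RPS27L at chr1:153990752-153990781 (plus) and chr15:63157458-63157487 (minus). The run was 12 bases in RPL26 and in RPL10, 11 in RPS3, 9 in RPS6 and RPLP0, 8 in RPL11 and RPL28 and 7 in RPS27. RPL26L1, RPS27L, RPL10L and RPL7L1 had none at an annotated start, and RPL22L1 had a run of 6 bases. RPL6, RPL19 and RPL32 also had none at their annotated starts. The 47 genes with the run had a median mean level of 2109 FPKM, and the 20 matched genes without it 865 FPKM. Of short motifs searched on both strands of the 300-base window, CTTCCG, the core recognised by ETS-family factors such as GABPA, was present in 62.7% of the matched ribosomal protein genes, in 55.2% of the mitochondrial ones, in 50.6% of the other genes with a mean of at least 100 FPKM, in 44.3% of genes with a mean of at least 1 FPKM and in 22.6% of all genes of the promoter table. ATGGCGG, found in sites of YY1, was present in 20.9%, 34.3%, 15.4%, 15.1% and 6.66% in the same order. TATAAA was present in 10.4%, 4.48%, 11.9%, 7.26% and 14.0%. The shares of these motifs were thus closer to those of other expressed genes than the share with the pyrimidine run was. A match to such letters is a description of the window only.

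In the order 2U, 2T, 4U, 4T, the summed FPKM of the table was 816882, 786224, 845681 and 826206, of which the 84 genes took 39.95, 36.83, 37.98 and 37.80%. The 40S genes took 22.1, 18.4, 18.8 and 18.9%, and the 60S genes 17.8, 18.5, 19.2 and 18.9%. The 40S share was thus highest in 2U, and the 60S share spanned a narrower range. Of the 20 rows with the highest mean FPKM, 13 were ribosomal protein genes, as were 29 of the top 50 and 46 of the top 100. The median ribosomal protein gene stood at 1960.1 FPKM (2U), 1801 (2T), 1471 (4U) and 1906 (4T), whereas the median of all genes above 0 ranged from 0.815 to 1.68 FPKM.

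**Figure D1:**
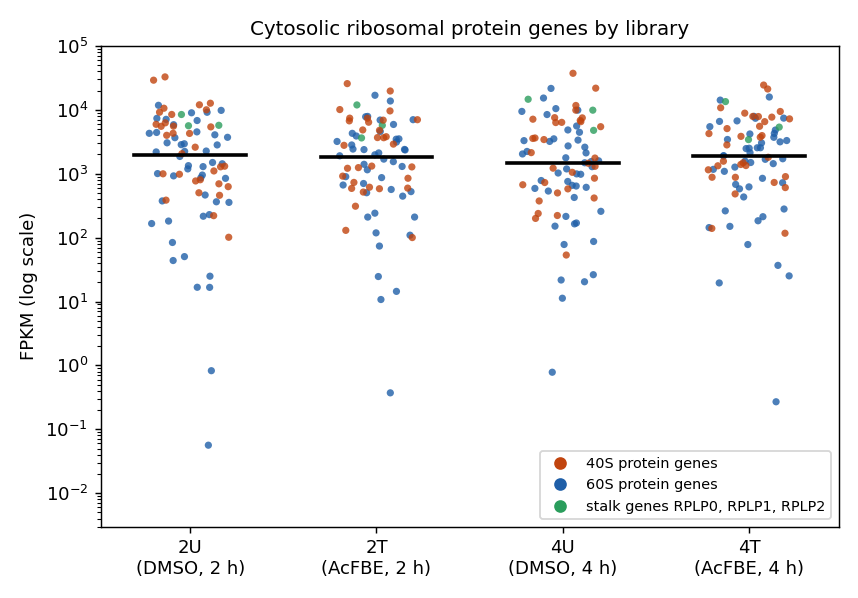
FPKM of each cytosolic ribosomal protein gene (vertical axis, log scale) in the 4 libraries, with 1 point per gene and a black bar at the median over all 84 genes. Values of 0 have no place on a log axis and are not drawn (1, 4, 2 and 1 genes in the order of the libraries), and most genes lie above 100 FPKM in every library.

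Levels spread widely, although most of these proteins enter the ribosome in equal numbers. RPS3, which lines the mRNA entry channel, stood at 29105, 19712, 21829 and 21199 FPKM in 2U, 2T, 4U and 4T (GRCh37 chr11:75110559-75133324). Of the 60S genes, RPL8 stood at 9802, 16896, 21632 and 15875 FPKM, with its lowest value in 2U. RPLP0, the base of the stalk, stood at 5724, 11925, 14633 and 13453 FPKM. RPL19 stood at 8988, 13748, 8437 and 14190 FPKM, so that both treated libraries were above both untreated ones. At the other end, 9, 9, 10 and 6 of the 84 genes were under 100 FPKM in 2U, 2T, 4U and 4T.

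Within a gene the 4 libraries were closer together. Among the 80 genes above 0 in all 4 libraries with a mean of at least 1 FPKM, the highest value was a median of 1.86 times the lowest, and 44 of the 80 stayed under 2 times. RPS21 varied least, at 1311, 1278, 1458 and 1395 FPKM. Of the 80, only RPL21 varied by 4 times or more. The lowest value fell in 4U for 34 of the 80 genes and in 2T for 27, and the highest in 4T for 36 and in 2U for 25. The 2 treated libraries resembled each other most, with a median absolute difference of 0.21 on the log2 scale between 4T and 2T, against 0.50 between 4U and 2U, 0.54 between 2T and 2U and 0.68 between 4T and 4U. Over all 5199 genes passing the same filter these medians were 0.35, 0.64, 0.80 and 0.89, in the same order of library pairs.

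The comparison of 2T with 2U asked how the transcriptome differed after 2 h of AcFBE. For this and the other comparisons, a gene entered when it was above 0 in both libraries and had a mean of at least 1 FPKM, and ratios carry no pseudocount. At 2 h, 28 of 80 ribosomal protein genes were higher in 2T and 52 were lower, with a median log2 ratio of -0.22 (0.856-fold), beside a median of 0.03 over all 5211 genes. The medians of the 40S and 60S genes were -0.24 and -0.22. At least 2-fold higher in 2T were 5 of the 80, beside a background of 22.6% of all genes, and at least 2-fold lower were 3 of the 80, beside a background of 18.7%. Both shares were below the background.

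The 5 genes at least 2-fold higher at 2 h were all of the 60S subunit, and 3 of them (RPL4, RPL5 and RPL6) were under 2-fold relative to the median of all genes of like coding GC, at log2 values of 0.97, 0.74 and 0.95. RPL3, which lies near the peptidyl transferase centre, stood at 1431 FPKM in 2U and 4287 in 2T (log2 ratio 1.58). RPL6 stood at 464 and 1299 FPKM (1.48). RPL5, which forms the 5S RNA particle with RPL11 and can bind MDM2, stood at 1292 and 3130 FPKM (1.28). RPL4, whose extension lines the exit tunnel, stood at 3047 and 7011 FPKM (1.20), and RPLP0 had a log2 ratio of 1.06. These 5 are among the longer genes of the set, with coding lengths of 1209 bases for RPL3, 864 for RPL6, 891 for RPL5, 1281 for RPL4 and 951 for RPLP0, against a median of 454. Across the 80 genes the rank correlation of the 2 h log2 ratio with coding length was 0.48, against -0.11 across 4321 other genes. Such correlations are across genes measured in the same libraries, which are not independent, and the part of length in the result was not tested.

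The 3 genes at least 2-fold lower at 2 h were RPL21, RPL32 and RPS15A. RPL32 stood at 1499 FPKM in 2U and 504 in 2T, and at 642 in 4U and 622 in 4T, so that 2U stood apart from the other 3 libraries. RPS15A stood at 2057, 916, 1221 and 1569 FPKM in the order 2U, 2T, 4U, 4T. Next came RPL30, at 6800 FPKM in 2U and 3471 in 2T (-0.97), and RPL12, at 4517 and 2431 FPKM (-0.89). Both were also well below 2U in 4U, at 3359 and 2231 FPKM.

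The comparison of 4T with 4U asked the same question after 4 h. Here 53 of 82 ribosomal protein genes were higher in 4T and 29 were lower, with a median log2 ratio of 0.36 (1.29-fold), beside a median of -0.35 over all 5392 genes. The medians of the 40S and 60S genes were 0.17 and 0.44. At least 2-fold higher in 4T were 22 of the 82, beside a background of 16.4%, and at least 2-fold lower were 3 of the 82, beside a background of 27.7%. Relative to the median of all genes of like coding GC, 7 were at least 2-fold higher, beside 9.91% of all genes with a coding sequence, and 1 lower, beside 10.7%. When each library was centred on its median gene, which brought the median of all genes to -0.09, these counts were 30 and 1, beside 21.7% and 18.8% of all genes under the same centring, and the median log2 ratio of the ribosomal protein genes was 0.63.

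Apart from RPL21, described below, the genes with the highest 4T/4U ratios stood lowest in 4U, which choosing them by that ratio favours. RPS6, the 40S protein phosphorylated by S6 kinase, stood at 3992, 4779, 1759 and 5526 FPKM in 2U, 2T, 4U and 4T (4T/4U log2 ratio 1.65; GRCh37 chr9:19375713-19380234). RPL11, the partner of RPL5, stood at 4065, 5903, 2038 and 6714 FPKM (1.72; GRCh37 chr1:24018232-24023325). RPL7 stood at 364, 446, 164 and 580 FPKM (1.82), and RPS7 at 459, 595, 239 and 730 FPKM (1.61). Relative to genes of like coding GC these 4 log2 values were 1.15 for RPS6, 1.71 for RPL11, 0.60 for RPL7 and 1.12 for RPS7, so that RPL7 was then under 2-fold. The 4U/2U log2 ratio was -1.18 for RPS6 and -1.15 for RPL7, and 4U stood at 0.501 times 2U for RPL11, while the 4T/2T log2 ratio was 0.21, 0.38 and 0.19 in the same order. RPL23, another 60S protein known to bind MDM2, stood at 3715, 2819, 2117 and 3435 FPKM (0.70).

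The 22 genes at least 2-fold higher at 4 h were 9 of the 40S and 13 of the 60S subunit, with log2 ratios from 1.12 to 1.65 among the 9. Relative to genes of like coding GC 5 of the 22 stayed at least 2-fold higher, namely RPS6, RPS7, RPL11, RPL21 and RPL26L1. In all 22 the highest of the 4 libraries was 4T, and in 19 of them the lowest was 4U. Choosing the genes by the 4T/4U ratio favours both. Besides RPS6 and RPS7, the 40S genes were RPS3A, RPS4X, RPS23, RPS24, RPS25, RPS27A and RPS27L. RPS4X stood at 5934, 7004, 3566 and 8872 FPKM in 2U, 2T, 4U and 4T (1.31). RPS24, a gene mutated in some cases of Diamond-Blackfan anaemia, stood at 695, 1217, 500.3 and 1342 FPKM (1.42). RPS27A, a fusion of ubiquitin with a 40S protein, stood at 503, 583, 375 and 901 FPKM (1.27). Among the 60S genes, RPL14 stood at 1338, 1908, 783 and 2134 FPKM (1.45) and RPL26, which can bind p53 mRNA, at 2265, 1979, 1026 and 2549 FPKM (1.31). RPL31 stood at 1189, 1152, 757 and 1714 FPKM (1.18). On the scale relative to like GC these 6 genes were under 2-fold, with log2 values of 0.82 for RPS4X, 0.50 for RPS24, 0.34 for RPS27A, 0.95 for RPL14, 0.39 for RPL26 and 0.68 for RPL31. In RPS4X, RPS24, RPS27A and RPL14 both treated libraries were above both untreated ones, whereas in RPL26 and RPL31 2U lay between 2T and 4T.

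Genes at least 2-fold lower at 4 h stood highest in 4U, which choosing them by the 4T/4U ratio favours. RPL28 stood at 5850, 3198, 9446 and 3155 FPKM in 2U, 2T, 4U and 4T (4T/4U log2 ratio -1.58). RPL18 stood at 11772, 7798, 15296 and 7416 FPKM (-1.04). Relative to genes of like coding GC both were under 2-fold, at -0.69 and -0.15. In both genes the treated libraries were below both untreated ones. The same order held in RPL36, at 4423, 2386, 4840 and 2505 FPKM (-0.95), and in RPLP1, at 8449, 5718, 9877 and 5365 FPKM (-0.88). Set against like coding GC, their 4 h log2 values were -0.06 for RPL36 and -0.55 for RPLP1. The stalk genes thus parted at 2 h, with log2 ratios of 1.06 for RPLP0, -0.56 for RPLP1 and -0.63 for RPLP2, although their proteins form a single complex. At 4 h they were -0.12, -0.88 and -0.48, of which that of RPLP0 changed sign when each library was centred on its median gene (0.15), and those of RPLP0 (0.21) and RPLP2 (0.11) relative to genes of like coding GC. RPLP2 stood at 5635, 3632, 4773 and 3418 FPKM. RPSA, the laminin-binding 40S protein, stood at 4272, 7408, 7482 and 7851 FPKM, so that 2U stood below the other 3 libraries.

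Both comparisons together, which share no library, covered 80 ribosomal protein genes. Of these, 23 were higher in the treated library at both times, 24 were lower at both, 28 were lower at 2 h and higher at 4 h, and 5 were the reverse. Of all 5199 genes covered, 28.0% were higher at both times, 37.9% lower at both, 11.2% lower at 2 h and higher at 4 h, and 22.9% the reverse. At least 2-fold higher at both times were RPL5 and RPL6, 2 of the 80 beside 8.31% of all genes, and RPL4 missed the bound only at 4 h, with 3295 FPKM in 4U and 6588 in 4T. RPL5 stood at 1289 FPKM in 4U and 3306 in 4T (1.36), and RPL6 at 425 and 1497 FPKM (1.82), so that in both genes the 2 untreated libraries and the 2 treated ones were each close together. Relative to genes of like coding GC neither was 2-fold at either time, with log2 values of 0.74 and 0.43 for RPL5 and 0.95 and 0.89 for RPL6. At least 2-fold lower at both times were 0 of the 80, beside 10.2% of all genes. The rank correlation of the 2 h and 4 h log2 ratios was 0.46 over the 80 genes, against 0.45 over all genes. Pearson's r was -0.32 with RPL21 and 0.50 without it, so that its sign rests on that 1 gene.

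**Figure D2:**
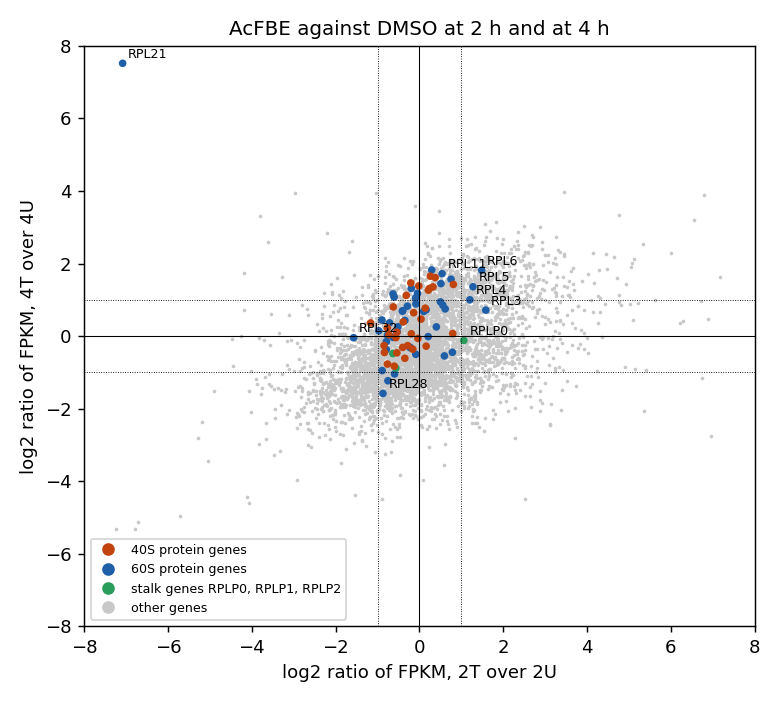
Log2 ratio of FPKM in 2T over 2U (horizontal) against 4T over 4U (vertical), 1 point per gene, with dotted lines at a 2-fold difference and other genes in grey (those beyond the axes are not drawn). RPL5 and RPL6 lie beyond 2-fold in the upper right, RPL21 lies alone at -7.08 and 7.52, and the other ribosomal protein genes form a cloud extended along the vertical axis.

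The untreated libraries were compared over time as the background for these ratios. In 4U against 2U, 24 of 81 genes were higher and 57 lower, with a median log2 ratio of -0.35 beside 0.15 over all 5328 genes. At least 2-fold higher were 3 of the 81, beside a background of 21.6%, namely RPL15 (1.41), RPLP0 (1.35) and RPL8 (1.14). At least 2-fold lower were 9 of the 81, beside a background of 9.89% (18 beside 14.9% with each library centred on its median gene). Among them were RPS3A, at 981 FPKM in 2U and 417 in 4U (-1.23), and RPL26, at 2265 and 1026 FPKM (-1.14). Of the 3 higher and 9 lower genes, 2 and 6 stayed at least 2-fold relative to genes of like coding GC. RPL8 (0.75) and RPL26 (-0.95) did not. In 4T against 2T, 68 of 80 genes were higher and 12 lower, with a median log2 ratio of 0.20 beside -0.08 over all 5206 genes. At least 2-fold higher were RPL21 and RPL22L1, 2 of the 80, beside a background of 4.15% (1 beside 4.46% relative to genes of like coding GC), and at least 2-fold lower were 0 of the 80, beside a background of 5.19%. The 4 comparisons share libraries in pairs, and 4U enters both 4T/4U and 4U/2U.

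The 4 h ratios went with the base composition of the genes. The GC content of the coding sequence (GENCODE, GRCh37) ranged from 40.4 to 63.0% in the set, with a median of 51.0%, against 55.6% over 4559 genes with a mean of at least 1 FPKM. In 4T/4U the rank correlation with coding GC was -0.80 over 82 ribosomal protein genes and -0.67 over 4459 other genes. In 2T/2U it was -0.15 and -0.25, in 4U/2U 0.60 and 0.23, and in 4T/2T -0.74 and -0.41. With the set divided into 3 groups of like size by coding GC, the median 4T/4U log2 ratio was 1.16 in the low group (26 of 27 genes higher, 17 at least 2-fold higher), 0.54 in the middle group and -0.45 in the high group (6 of 27 genes higher, 0 at least 2-fold higher and 3 at least 2-fold lower). Other genes within the same GC bounds had medians of 1.04, 0.09 and -0.93, with 834 of 958 higher and 497 at least 2-fold higher in the low group. In the high group 350 of 2537 of them were higher, 65 at least 2-fold higher and 1166 at least 2-fold lower. Among other genes with a mean of at least 100 FPKM, 42 of 61 in the low group were at least 2-fold higher, so that the share of the ribosomal protein genes lay between these. The GC content of RPS6 was 47.3%, of RPL7 43.4% and of RPL6 46.8%, whereas that of RPL28 was 59.6% and of RPL18 59.6%. Subtracting the median of all genes in the same of 10 bins of coding GC left a median 4T/4U log2 ratio of 0.27 and the counts of 7 and 1 given above, over 4541 genes with a coding sequence. The same step at 2 h left a median of -0.32, with 3 genes higher and 10 lower, beside 20.7% and 17.7% of 4401 genes. The part of GC content in these ratios was not tested beyond these values.

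**Figure D3:**
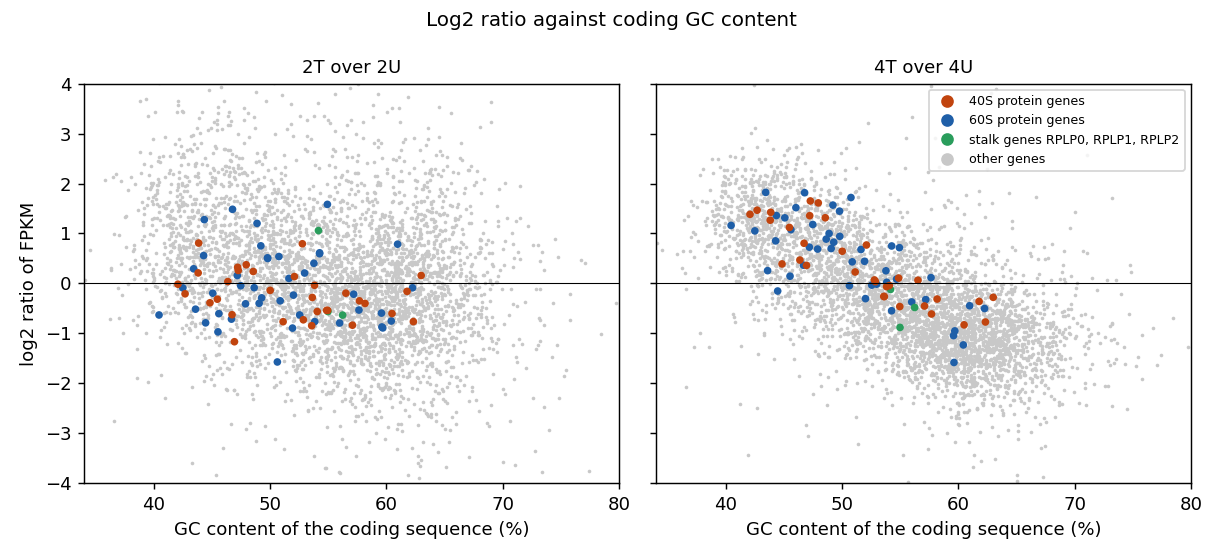
Log2 ratio of FPKM (vertical) against the GC content of the coding sequence (horizontal) for 2T over 2U (left) and 4T over 4U (right), 1 point per gene, with ribosomal protein genes coloured by subunit and other genes in grey. At 4 h the ribosomal protein genes run from upper left to lower right along the other genes, and points beyond 4 log2 units, RPL21 among them, are not drawn.

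A few rows held values near or at 0 in some libraries and high values in others. RPL21, a 60S protein, stood at 50.4, 0.372, 0.782 and 144 FPKM in 2U, 2T, 4U and 4T (GRCh37 chr13:27825499-27830828), which gave log2 ratios of -7.08 at 2 h and 7.52 at 4 h. The pseudogene row RPL21P28 stood at 79.2, 740, 306 and 713 FPKM, and the sum of both rows was 129.6, 740.0, 306 and 857 FPKM. All windows of 35 bases, a sequence length named in the study's methods, of the RPL21 coding sequence are found more than once in GRCh37. RPL10 was listed at 0 in 2U and 2T, and stood at 1484 FPKM in 4U and 1575 in 4T. RPL17 stood at 229 FPKM in 2U, was listed at 0 in 2T, and stood at 151 in 4U and 433 in 4T. The read-through row RPL17-C18ORF32 stood at 21.0, 0, 0.664 and 0.2001 FPKM. These proteins are parts of every cytosolic ribosome, and a value of 0 in the table can be a failed estimate. FAU, which encodes a ubiquitin-like protein fused to RPS30 and falls outside the name rule, was likewise listed at 0 in both 2 h libraries, with 3258 FPKM in 4U and 1959 in 4T.

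Repeated sequence was common in the set. Of its coding windows of 35 bases, a median of 63.2% per gene occurred more than once in the genome, and 53 of the 84 genes had at least 50% of such windows. Only exact matches were counted, and windows across an exon junction are as a rule absent from the gene's own locus. A junction window with a single match in another copy was not counted as repeated, so these shares are lower bounds. The share was 39.9% in RPS3, 2.80% in RPL11, 30.6% in RPS6, 87.2% in RPL10 and 92.5% in RPL17. It was 100% in RPS3A, RPS26, RPS27, RPL21, RPL39 and RPL41, 99.4% in RPL7 and 90.2% in RPL6 and RPSA, so that the values of these rows may hold reads of other copies. The 13 genes above 90% had a median mean level of 919 FPKM, the 40 genes from 50 to 90% 1647 FPKM and the 31 genes under 50% 4336 FPKM. Across all 84 genes the rank correlation of this share with the mean level was -0.29. Its rank correlation with the log2 ratio was 0.15 in 2T/2U and 0.19 in 4T/4U. The table also held 28 rows named as ribosomal protein pseudogenes, 27 of which RefSeq lists as pseudogenes, and 9 had a mean of at least 100 FPKM. The highest, RPL13AP5, stood at 6723, 5752, 7365 and 6165 FPKM, above its parent RPL13A at 2235, 1545, 1551 and 1681 FPKM. The pseudogene rows took 1.33 to 1.51% of the summed FPKM. How the reads of such copies were shared between rows was not tested.

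**Figure D4:**
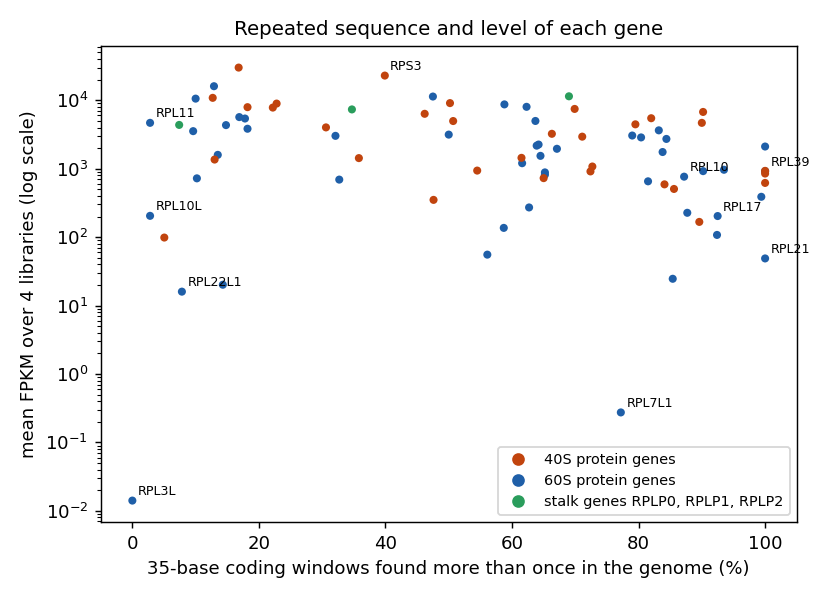
Mean FPKM over the 4 libraries (vertical, log scale) against the percentage of 35-base coding windows found more than once in GRCh37 (horizontal), 1 point per gene of the set. Genes with 100% repeated windows reach 2109 FPKM at most, whereas RPS3 with 39.9% stands at 22961 FPKM, and the paralogues RPL3L and RPL7L1 lie lowest.

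Paralogues of 7 ribosomal proteins met the name rule and most were far below their parent genes. RPL3L, a muscle paralogue of RPL3, was at 0.0564 FPKM in 2U and listed at 0 in the other 3 libraries, beside 1431 to 4287 FPKM for RPL3. RPL7L1 was at 0.826, 0, 0 and 0.270 FPKM. RPL22L1 stood at 16.6, 10.7, 11.3 and 25.2 FPKM and RPL22, its parent, at 16.7, 24.6, 20.4 and 36.8 FPKM, so that in this pair both were low. RPL26L1 stood at 43.8, 73.8, 26.3 and 78.0 FPKM beside 1026 to 2549 FPKM for RPL26. RPS27L, a p53-inducible paralogue, stood at 101, 100.2, 53.4 and 139 FPKM beside 731 to 1331 FPKM for RPS27. RPL39L stood at 24.9, 14.4, 21.7 and 19.5 FPKM beside 613 to 1270 FPKM for RPL39. RPL10L, known from testis, stood at 182, 210, 215 and 213 FPKM, a range far narrower than the values listed for RPL10. Of its coding windows 2.80% have an exact repeat. The study allowed mismatches in mapping, so the RPL10L row may still hold reads of RPL10, which was not tested. Outside the name rule, RPL36AL stood at 40.5, 89.8, 40.4 and 128 FPKM.

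Other genes of ribosome production and translation were compared by the same measures, with the counts to be read beside the shares of all genes given above (22.6% higher and 18.7% lower at 2 h, 16.4% and 27.7% at 4 h). The 78 rows named MRPL or MRPS had median log2 ratios of -0.10 at 2 h and 0.33 at 4 h. At least 2-fold higher were 14 of 70 at 2 h (3 lower) and 22 of 75 at 4 h (6 lower). Most of these rows are nuclear genes for proteins of the separate mitochondrial ribosome, but RefSeq lists MRPL42P5 and MRPL45P2 as transcribed pseudogenes. MRPL45P2 is among the 22 (4T/4U log2 ratio 1.30). Other mRNAs known to carry a TOP tract had median ratios of 1.53-fold at 2 h (7 of 18 at least 2-fold higher, 1 lower) and 2.01-fold at 4 h (10 of 19 higher, 1 lower). Among the ribosomal protein genes matched to a promoter window, the median log2 ratio was -0.27 with the pyrimidine run and 0.18 without it at 2 h (46 and 18 genes), and 0.25 and 0.72 at 4 h (47 and 19 genes), so that the genes with the run had the lower median at both times. This split rests on annotated starts alone. The group without the run holds RPL3 and RPS7, with shorter runs of 4 and 3 bases, and the paralogues RPL10L, RPL26L1 and RPS27L. Whether its mRNAs lack a TOP tract in SK-HEP-1 was not tested, and the split was not set against genes of like coding GC. The next 3 genes belong to the other mRNAs with a TOP tract, not to the ribosomal protein set. EEF1A1, the elongation factor that delivers aminoacyl-tRNA, stood at 265, 2017, 391 and 2081 FPKM in 2U, 2T, 4U and 4T. EIF3E stood at 22.6, 91.1, 30.3 and 124 FPKM, and GNB2L1 (RACK1), a protein of the 40S head, at 27752, 26785, 26436 and 25432 FPKM. The treated libraries were thus above the untreated ones for EEF1A1 and EIF3E and nearly level with them for GNB2L1. Genes of ribosome assembly and rRNA synthesis had medians of 0.12 at 2 h (10 of 28 higher, 2 lower) and 0.03 at 4 h (9 of 30 higher, 6 lower). NPM1, a nucleolar chaperone, stood at 152, 654, 170 and 688 FPKM, and NCL, nucleolin, at 1.24, 11.8, 3.21 and 12.8 FPKM, so that in both genes the treated libraries were above the untreated ones at each time. In contrast BOP1, a 60S assembly factor, stood at 49.7, 25.4, 71.0 and 17.7 FPKM and RRP9 at 73.9, 44.9, 110.3 and 28.2 FPKM, with both treated libraries below both untreated ones. Coding GC was 48.2% in EEF1A1, 39.8% in EIF3E, 42.2% in NPM1, 46.7% in NCL and 61.3% in RRP9, and was not matched for BOP1 and GNB2L1. The 4 h ratios went with coding GC (above), and the genes of these other lists were not set against genes of like GC. Of the 12 regulators of ribosomal protein mRNAs, 5 passed the filter, with a median log2 ratio of 1.57 at 2 h (4 at least 2-fold higher, 0 lower) and -0.48 at 4 h (1 higher, 2 lower). MYC, a transcription factor that raises ribosome production, stood at 5.14, 15.3, 55.0 and 11.6 FPKM, highest in 4U, and LARP1 at 0.677, 2.78, 4.295 and 3.07 FPKM.

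**Figure D5:**
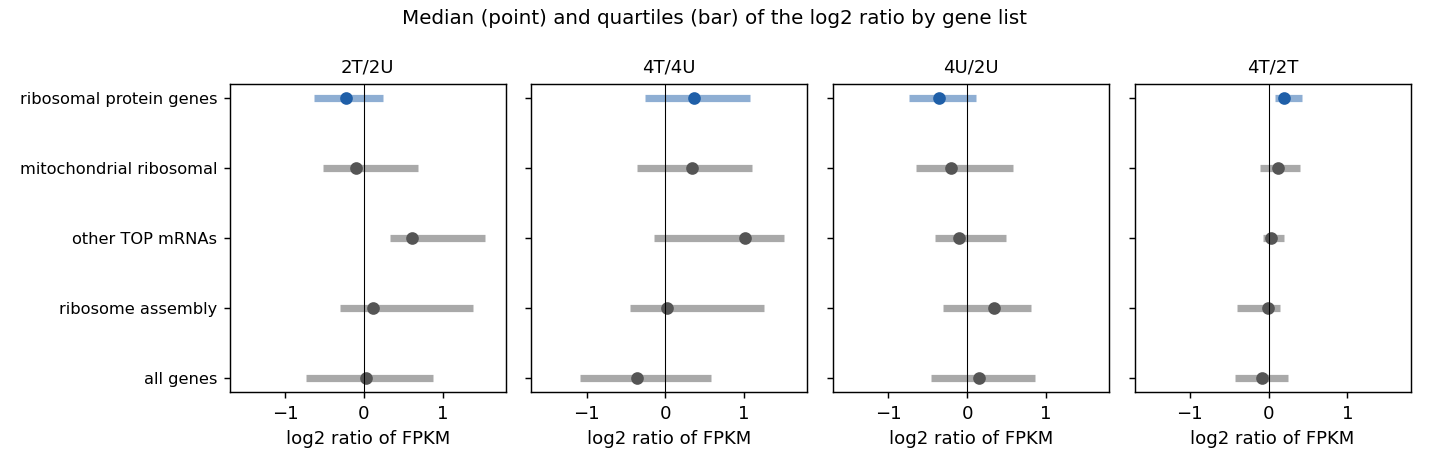
Median (point) and quartiles (bar) of the log2 ratio of FPKM for 5 gene lists (rows) in 4 comparisons (panels). The ribosomal protein genes lie to the left of all genes in 2T/2U and 4U/2U and to the right in 4T/4U and 4T/2T, and the bars are narrowest between the treated libraries.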

How the data were processed

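The authors isolated polyadenylated RNA from SK-HEP-1 cells, amplified the cDNA by PCR, sequenced it on SOLiD 3 and mapped it to hg19 (GRCh37). Windows of 35 bases were searched in the genome, the sequence length that the methods give in a passage on both kinds of library that goes on to the trimming of miRNA reads. The submitters' processing notes name TopHat and Cufflinks, and the text of the study names Bowtie and Cufflinks. The authors deposited FPKM, which hold no counts, so the depth of a single value is unknown and no interval is given. Handling of reads with several positions is not given in the sources used here. Low values show a floor at 4 h: no gene lies between 0 and 0.2 FPKM in 4U or 4T, against 2656 genes in 2U and 1173 in 2T. Genes above 0 numbered 10691, 8454, 9550 and 9773 (2U, 2T, 4U, 4T). The numbers for the 2 h libraries are not those the text of the study gives, so the 2 h columns may have been filtered otherwise than the 4 h columns, which bears on each ratio that uses 2U or 2T. Of 1253 genes under 0.3 FPKM in both 2 h libraries, 120 had a ratio of 2U over 2T of 1.08, the commonest value.

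Ratios, medians and counts were computed in Python 3.11.15 (pandas 2.3.3, scipy 1.17.1, numpy 2.4.6), and the functions were tested on simulated data with known folds. Genes above 0 in both libraries with a mean of at least 1 FPKM were kept. Named genes were the 5 with the highest mean, the 5 highest and 5 lowest ratios at each time among genes with a mean of at least 10 FPKM, the stalk genes, RPSA, RPL5, RPL11, RPL23, RPS6, the paralogues with their parents, genes listed at 0 and genes beyond 2-fold at both times. Others, among them RPS7, RPS21, RPS3A, RPS4X, RPS24, RPS27A, RPL13A, RPL14, RPL15 and RPL31, were named after their values were seen, as were the examples from other gene lists. Coding sequences came from GENCODE on GRCh37 and matched 84 of 84 genes of the set and 83.7% of rows with a mean of at least 1 FPKM. The genes and lists were chosen with earlier results of these data known. The miRNA tables were not used here. Figures used matplotlib 3.10.9. Some genes covered by these rules are not reported here.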

Additional observations from a re-analysis of the deposited data

Results flagged for a closer look

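The median log2 ratio of the ribosomal protein genes had opposite signs at the 2 times, at -0.22 in 2T against 2U and 0.36 in 4T against 4U, while 47 of 80 genes went the same way at both. RPL21 had opposite signs with a log2 ratio of -7.08 at 2 h and 7.52 at 4 h, and its pseudogene row RPL21P28 was higher in the treated library at both times (3.22 and 1.22). With 1 library per condition, the difference between the times was not tested in either case.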

How the results depend on the processing

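Over the alternatives run, the median log2 ratio of the ribosomal protein genes kept its sign in each of the 4 comparisons. Centring each library on its median gene moved the 4U/2U median to -0.58 with 18 of 81 genes at least 2-fold lower, beside 14.9% of all genes so centred, the 4T/2T median to 0.34, and the count of genes at least 2-fold lower at 4 h to 1. Ratios were also measured against genes of like coding GC, an alternative chosen after seeing the data. At least 2-fold were then 3 genes higher and 10 lower at 2 h, and 7 higher and 1 lower at 4 h. In 4U/2U the counts were 2 higher and 6 lower, and in 4T/2T 1 higher. On this scale the 4 h log2 ratio changed sign in 28 of 82 genes and the 2 h ratio in 9 of 80. Among the 28 were RPL22L1 (-0.057) and RPL39 (-0.17), the 2 that had been beyond 2-fold. Centring changed the sign in 9 of 82 genes at 4 h and 2 of 80 at 2 h, none of them beyond 2-fold. In 4T/2T the 2 genes at least 2-fold higher became 4 on the log2(FPKM + 1) scale and 1 without the 7 paralogues, without genes with over 90% repeated windows, or without genes under 1 FPKM in any library, the last 2 also chosen after seeing the data. The share of summed FPKM was 47.15, 45.50, 46.21 and 45.87% (2U, 2T, 4U, 4T) without the 10 highest other rows, and moved by less than the first decimal without small RNA rows. The cause of these shifts was not tested, apart from the sums and genes left out. Treated and untreated libraries were compared within each time, and a joint fit of treatment and time was not run.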
